A study of Mus musculus with 6 samples.

Results

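Transcripts of 36 genes of glycolysis and of the response to low oxygen were followed in mouse cells of a line labelled HACA in which Loxl2 or Snail had been silenced. The genes were taken from a fixed list by the gene names of the array, with the brightest probe standing for each gene. Of the 36 genes, 34 had a probe and passed the filter on dim probes, out of 18555 genes tested in all. No probe carried the name of Gapdh or Ankrd37. In the line with a short hairpin against Loxl2, 13 of the 34 genes passed the test, 5 higher and 8 lower than in control. That was 38.2% of them, against 14.1% of all genes tested. In the line with a short hairpin against Snail, 10 passed, 2 higher and 8 lower. Their share was 29.4%, against 21.4% of all genes tested. On probes above background in both channels on all 6 arrays, 12 of 27 genes passed in the Loxl2 line, against 3035 of 9460 probes. In the Snail line 11 of those 27 passed, against 3998 of the 9460 probes. Hif1a, Hk2, Pdk1, Slc16a3 and Ero1l were lower and Ddit4 was higher in both lines. Pfkp was higher in the Loxl2 line and lower in the Snail line. Adm and Bnip3 fell in the Loxl2 line and Vegfa fell in the Snail line. The calls of Pfkp and Slc16a3 in both lines, and of Pdk1 and Ero1l in the Snail line, were lost when single replicates were left out.

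The study hybridised RNA of the silenced cells, labelled shLoxl2 and shSnail, together with RNA of a control line, shGFP, named for a hairpin against green fluorescent protein, on 6 Agilent arrays with 2 colours. The shLoxl2 line had 4 arrays, made of 2 replicates with an array in each dye orientation. The shSnail line had 2 arrays, and Cy5 marked the silenced RNA on both. The design text of the series counts 3 hybridisations for each condition, and the labels were followed here. A short hairpin RNA directs the breakdown of the transcript it matches. Loxl2 is an enzyme of the lysyl oxidase family, and Snail, the product of Snai1, is a repressor of epithelial genes. The labels give no strain, passage, oxygen tension or treatment, do not say whether a line is 1 clone or a pool, and do not tell whether replicates were grown apart, so the p-values may measure technical spread only. They also do not say what promoter drove the hairpins. Because shGFP was the other channel of every array, it counts as 1 control sample whose own spread enters no test, and the 2 comparisons with it share it.

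Glycolysis breaks glucose down to pyruvate, which is reduced to lactate or enters the mitochondrion. When oxygen is scarce, the subunit HIF-1alpha escapes hydroxylation by prolyl hydroxylases and, with its partner ARNT, binds a short core sequence near its target genes, among them glucose carriers, most glycolytic enzymes and genes of vessel growth and mitochondrial turnover. Carcinoma cells often keep this programme active in the presence of oxygen, and the level of HIF-1alpha is set mainly through its protein.

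The promoter windows of 6 genes on which the results turn are printed below, each the 250 bases before a gene start of the RefSeq annotation (build GRCm38.p6), 5′ to 3′ along the gene. Capitals mark the core of the hypoxia response element, searched as ACGTG and GCGTG on both strands. A match that reads the same on both strands, as in the E-box CACGTG, was counted on each.

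Hif1a, chr12:73907617-73907866, plus strand: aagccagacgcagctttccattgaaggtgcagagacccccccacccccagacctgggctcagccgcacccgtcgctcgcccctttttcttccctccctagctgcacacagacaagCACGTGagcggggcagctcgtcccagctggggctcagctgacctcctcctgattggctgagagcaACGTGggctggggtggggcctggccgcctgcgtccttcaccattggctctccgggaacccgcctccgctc
Hk2, chr6:82774455-82774704, minus strand: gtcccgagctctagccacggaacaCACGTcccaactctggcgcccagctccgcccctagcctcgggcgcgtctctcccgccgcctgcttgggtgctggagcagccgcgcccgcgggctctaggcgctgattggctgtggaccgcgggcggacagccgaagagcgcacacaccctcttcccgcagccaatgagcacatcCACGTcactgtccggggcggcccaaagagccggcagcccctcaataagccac
Ddit4, chr10:59951771-59952020, minus strand: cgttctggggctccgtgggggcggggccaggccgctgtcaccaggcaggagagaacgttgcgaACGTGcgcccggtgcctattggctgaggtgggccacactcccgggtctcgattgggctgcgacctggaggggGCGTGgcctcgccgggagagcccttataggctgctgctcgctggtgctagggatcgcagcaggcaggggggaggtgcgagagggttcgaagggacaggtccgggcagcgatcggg
Adm, chr7:110627407-110627656, plus strand: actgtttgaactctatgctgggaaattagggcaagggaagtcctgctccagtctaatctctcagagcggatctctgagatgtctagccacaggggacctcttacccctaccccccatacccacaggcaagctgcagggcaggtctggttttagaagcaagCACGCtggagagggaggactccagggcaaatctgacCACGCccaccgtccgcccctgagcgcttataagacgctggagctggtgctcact
Bnip3, chr7:138909507-138909756, minus strand: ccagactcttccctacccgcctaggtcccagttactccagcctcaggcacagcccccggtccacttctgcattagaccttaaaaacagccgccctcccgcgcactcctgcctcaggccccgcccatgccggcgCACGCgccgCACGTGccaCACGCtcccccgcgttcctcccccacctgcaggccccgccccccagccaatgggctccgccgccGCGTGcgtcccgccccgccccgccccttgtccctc
Vegfa, chr17:46032378-46032627, minus strand: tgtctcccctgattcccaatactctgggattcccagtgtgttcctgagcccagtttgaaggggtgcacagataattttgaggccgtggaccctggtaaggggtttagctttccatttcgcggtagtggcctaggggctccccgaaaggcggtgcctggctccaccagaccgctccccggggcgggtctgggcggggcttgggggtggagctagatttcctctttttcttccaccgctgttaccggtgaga

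Hif1a, Hk2 and Ddit4 are shown as examples of the genes that passed in both lines. Pdk1, Slc16a3 and Ero1l also passed in both in the same direction and are not shown. Adm and Bnip3 fell furthest in shLoxl2, and Vegfa fell furthest in shSnail. The Bnip3 window held 5 matches, the Hif1a window 3, and the Hk2, Ddit4 and Adm windows 2 each. The Vegfa window shown held 0. That of a further start listed for the gene, downstream of it at chr17:46025164-46025413, held 2. Vegfa counts below as a gene with a match through that downstream window alone. Windows were listed for 33 of the 36 genes, and in 30 of them (90.9%) at least 1 window held a match. Over all 27025 RefSeq genes with a window the share was 41.5%. A gene with more listed starts has more windows to match. Counted by window, the shares were 79.6% of 49 and 38.6% of 32851. A match was present in 8 of 8 genes that fell and 5 of 5 that rose in shLoxl2, and in 15 of 18 that did not pass. A match is a stretch of letters and no evidence of binding.

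Some facts of the arrays bear on all values. Between 55.9% and 74.9% of probes were well above background in the green channel and between 85.4% and 92.4% in the red channel. Before averaging, the Cy5 and the sign-turned Cy3 array of a replicate were hardly correlated over all probes (r = 0.02 and -0.03), and the averaged pairs of the 2 replicates correlated at 0.68. The dye effect, the mean of the Cy5-over-Cy3 ratios of a pair, correlated at 0.79 between the pairs. The shSnail arrays were scanned on a different day from the shLoxl2 arrays and extracted with another protocol setting, so day and line cannot be told apart. The silenced transcripts do not check the labels: the Loxl2 probe was well above background in the silenced channel on 2 of 4 shLoxl2 arrays and did not pass there (0.11, SE 0.12, adjusted p = 0.59), and the Snai1 probe stayed at background in both channels of both shSnail arrays. Of 12 keratinocyte and epithelial markers, 9 were well above background in the control channel on all 6 arrays, against 2 of 8 fibroblast, 4 of 8 leukocyte and 0 of 6 endothelial markers. The 4 leukocyte markers were Cd68, Cd3e, Csf1r and Laptm5, while Ptprc was above background there on none. The endothelial markers ran from 0 arrays for the receptor Tek to 4 for Cdh5 and Esam. Some markers moved with the lines. Of the 12 epithelial markers, all tested in limma, 2 rose in shLoxl2, Epcam (1.51, adjusted p = 0.0017) and Cdh1 (1.08, adjusted p = 0.0049). In the control channel Epcam was well above background on only 2 of 6 arrays and Cdh1 on 1. A further 3 fell, among them the basal integrin subunit Itgb4 (-1.88, adjusted p = 0.0010). In shSnail 1 rose, the simple keratin Krt8 (1.12, adjusted p = 0.0036), with the control channel well above background on 2 of 6 arrays. There 7 fell, among them Itgb4 (-1.78, adjusted p = 0.0013). The log2 ratio of the summed epithelial levels, silenced over control, ran from -0.62 to -0.05 over the shLoxl2 arrays and was -1.05 and -1.04 on the shSnail arrays. Of 8 fibroblast markers tested, Pdgfra fell in both lines (-0.82, adjusted p = 0.012, and -1.18, adjusted p = 0.0044) and Thy1 rose in shSnail (0.57, adjusted p = 0.048), with summed ratios from -0.60 to 0.04 in shLoxl2 and from -0.13 to -0.02 in shSnail. Thy1 was well above background in either channel on only 2 of 6 arrays. Of 7 leukocyte markers tested, Cd68 rose in shLoxl2 (0.66, adjusted p = 0.019), with summed ratios from 0.02 to 0.14 and from -0.09 to -0.04. Of 4 endothelial markers tested none passed in limma, with summed ratios from -0.21 to 0.31 and from 0.10 to 0.43. The part of these shifts in the results was not tested.

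Values below are log2 ratios of silenced over shGFP RNA. The 4 shLoxl2 arrays are given in the order replicate 1 in Cy3, replicate 1 in Cy5, replicate 2 in Cy3, replicate 2 in Cy5, followed where relevant by shSnail replicates 1 and 2. Fold changes come from limma with Benjamini-Hochberg adjustment over all 19719 probes and a threshold of 0.05. For shSnail the dye effect measured on the shLoxl2 pairs was removed in full. The shSnail ratio followed that effect with a slope of 0.45 over all probes, so full removal may overcorrect. The value with no dye correction is also given for the genes that passed in shSnail and for those with the largest dye effects. Each silenced group has n = 2. In the shLoxl2 test the spread was estimated from both lines together. In the shSnail test it came from both lines and from the dye effects of the 2 shLoxl2 pairs. A shLoxl2 value averages 2 arrays and a shSnail value is 1 array, so the shSnail SE may be too small.

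In shLoxl2, the 13 of 34 genes that passed made up 38.2%, against 14.1% of all 18555 genes. The 5 that rose were 14.7% of the 34, against 8.26% of all genes, and the 8 that fell were 23.5%, against 5.86%. The median of the 34 genes was -0.07 and that of all genes -0.01. In shSnail, the 10 that passed were 29.4%, against 21.4% of all genes, with 2 higher (5.88% against 9.02%) and 8 lower (23.5% against 12.4%). There the median was -0.26, against -0.04 for all genes. With no dye correction 14 passed in shSnail, against 31.5% of all genes, with 5 higher (against 13.4%) and 9 lower (against 18.1%). With the dye effect scaled by its slope on the shSnail arrays, 0.45, 13 passed, against 23.4%, with 3 higher (against 9.28%) and 10 lower (against 14.1%). The 10 genes named below as changed in shSnail passed under all 3 dye settings. The shares of all genes include dim probes. With only probes above background in both channels on all 6 arrays, 27 of the genes and 9460 probes remained. In shLoxl2 6 of these genes rose and 6 fell, against 1637 and 1398 probes. In shSnail 3 rose and 8 fell, against 1631 and 2367 probes. With any 1 replicate of either line left out, 10 to 14 of the 34 genes passed in shLoxl2 and 4 to 6 in shSnail.

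**Figure D1:**
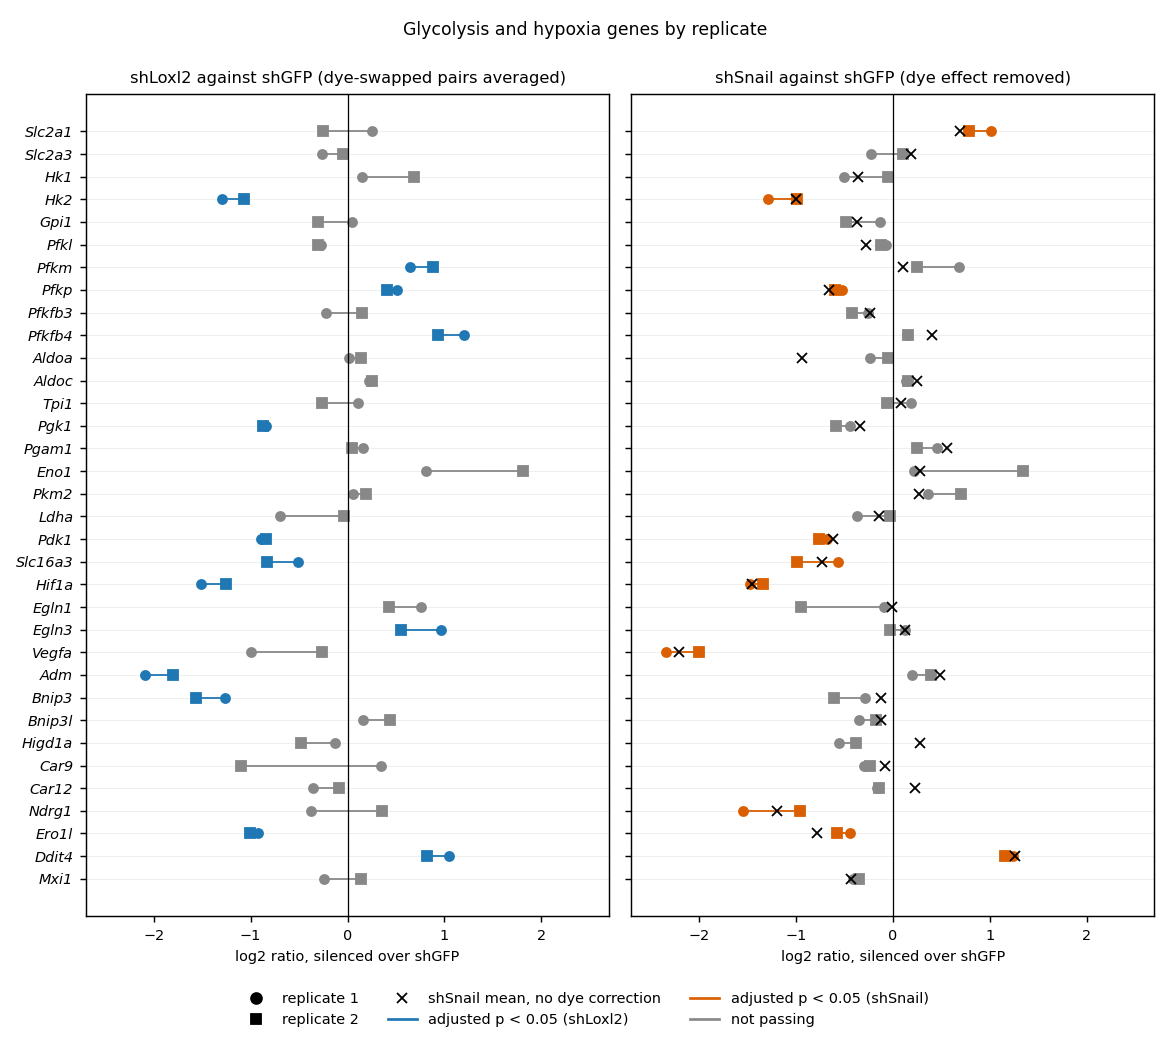
Log2 ratio of silenced over shGFP RNA for each of the 34 genes (rows), as averaged dye-swapped pairs of shLoxl2 (left) and dye-corrected shSnail arrays (right). Circles are replicate 1, squares replicate 2, crosses the shSnail mean with no dye correction, and coloured genes passed limma at an adjusted p of 0.05. Hif1a and Hk2 lie below -0.9 in every replicate of both lines, Adm lies near -2 in shLoxl2 alone, and Vegfa near -2 in shSnail alone.

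Of the genes of oxygen sensing, Hif1a was low in both lines, and its change was the largest among the genes that passed in both. Hif1a encodes the oxygen-regulated subunit HIF-1alpha, and its probe lies at chr12:74865120-74865180 (mm8, the build of all probe positions here). The files do not say which exon or untranslated region a probe matches. On the 4 shLoxl2 arrays the Hif1a ratio was -1.40, -1.62, -1.27 and -1.24, and on the shSnail arrays -1.52 and -1.38. All 6 arrays were low in both dye orientations, and the ranges of the lines overlapped. Hif1a fell 2.61-fold in shLoxl2 (-1.39, SE 0.12, adjusted p = 0.0028) and 2.64-fold in shSnail (-1.40, SE 0.15, adjusted p = 0.0026), or -1.45 with no dye correction. The prolyl hydroxylases that mark HIF-1alpha for breakdown are themselves among its target genes. Egln3 stood at 0.91, 1.02, 0.45 and 0.65 in shLoxl2 and at 0.20 and 0.05 in shSnail, so that the shLoxl2 arrays were all higher. It rose in shLoxl2 (0.76, SE 0.14, adjusted p = 0.021) and did not pass in shSnail (0.05, SE 0.18). Without shLoxl2 replicate 1 its value was 0.55 and it no longer passed (adjusted p = 0.081). Egln1 passed in neither line (0.59, SE 0.22, and -0.52, SE 0.28, or -0.01 in shSnail with no dye correction), and its shLoxl2 ratios ran from -0.13 to 1.22 with the control channel well above background on 2 of 4 arrays.

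At the entry of glucose, Hk2, the inducible hexokinase that phosphorylates glucose at the mitochondrial surface, was low on every array. Its probe lies at chr6:82690720-82690779. The Hk2 ratio was -1.52, -1.07, -1.14 and -1.0 on the shLoxl2 arrays and -1.14 and -0.85 on the shSnail arrays. Hk2 fell 2.27-fold in shLoxl2 (-1.18, SE 0.13, adjusted p = 0.0053) and 2.20-fold in shSnail (-1.14, SE 0.17, adjusted p = 0.0061), or -1.0 with no dye correction. Hk1, the constitutive hexokinase, did not pass in shLoxl2 (0.42, SE 0.18) or shSnail (-0.28, SE 0.24). Slc2a1, the widely expressed glucose carrier GLUT1, rose in shSnail and did not pass in shLoxl2. Its ratios were 0.62, -0.12, -0.21 and -0.29 on the shLoxl2 arrays and 0.81 and 0.58 on the shSnail arrays. The shLoxl2 arrays thus scattered around 0, and 1 of them, a Cy3 array, reached the shSnail range. On the Cy5 arrays alone the lines did not overlap. In shSnail it rose 1.86-fold (0.90, SE 0.22, adjusted p = 0.031), or 0.69 with no dye correction, while shLoxl2 gave 0.00 (SE 0.15). The spot was saturated in each channel on 2 of 4 shLoxl2 arrays, on which the shLoxl2 value and the dye effect rest, and on no shSnail array. The shSnail call was lost without either shSnail replicate (0.78 without replicate 1 and 1.01 without replicate 2) and without shLoxl2 replicate 1, from which part of the dye effect came. Slc2a3, the neuronal-type carrier GLUT3, did not clear background in the shGFP channel of either shSnail array and passed in neither line.

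In upper glycolysis 3 of 9 genes rose and 0 fell in shLoxl2, where 8.26% of all genes rose and 5.86% fell, and the Pfkm and Pfkp calls were lost when either replicate was left out. Pfkfb4 makes and degrades fructose 2,6-bisphosphate, the activator of phosphofructokinase, and its probe lies at chr9:108889519-108889578. Its ratios were 0.98, 1.43, 0.65 and 1.21 on the shLoxl2 arrays and 0.40 and 0.41 on the shSnail arrays, so that every shLoxl2 array was the higher. Pfkfb4 rose 2.10-fold in shLoxl2 (1.07, SE 0.12, adjusted p = 0.0055). In shSnail it did not pass with the dye effect removed (0.15, SE 0.15) and passed without that correction (0.41, adjusted p = 0.048). Pfkm and Pfkp encode the muscle and platelet subunits of phosphofructokinase, which commits sugar to glycolysis. Pfkm stood at 1.07, 0.21, 1.19 and 0.58 in shLoxl2 and rose (0.76, SE 0.15, adjusted p = 0.024), higher on both Cy3 arrays than on both Cy5 arrays. With the Cy5 arrays alone it was 0.40, and without background subtraction 0.31, and it passed in neither setting. In shSnail it did not pass (0.47, or 0.11 with no dye correction). In shLoxl2 it also did not pass without replicate 1 (0.89, adjusted p = 0.057) or without replicate 2 (0.64, adjusted p = 0.087). Pfkp stood at 0.51, 0.51, 0.60 and 0.21 in shLoxl2 and at -0.62 and -0.69 in shSnail, and the signs of the lines differed on every array. It rose in shLoxl2 (0.46, SE 0.11, adjusted p = 0.045) and fell in shSnail (-0.56, SE 0.14, adjusted p = 0.037), or -0.66 with no dye correction. Both Pfkp calls were lost when any 1 replicate of either line was left out. The liver subunit Pfkl (-0.29 and -0.10), the bifunctional enzyme Pfkfb3 (-0.03 and -0.34), the isomerases Gpi1 (-0.13 and -0.31, saturated in each channel on 2 of 4 shLoxl2 arrays) and Tpi1 (-0.08 and 0.07) and the aldolase Aldoc (0.23 and 0.15) passed in neither line, with shLoxl2 given first.

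The aldolase Aldoa, which splits the phosphorylated sugar, had opposite signs in the 2 dyes. Its ratios were 0.89 and 0.86 on the Cy3 arrays of shLoxl2 and -0.86 and -0.57 on the Cy5 arrays, so that the sign followed the dye and not the line. The averaged pairs gave 0.08 (SE 0.11). The shSnail arrays, both in Cy5, stood at -1.03 and -0.84, which gave -0.94 with no dye correction (adjusted p = 0.0033) and -0.14 (SE 0.15) with the dye effect of -0.80 removed. The spot was saturated in the control channel on 3 of 4 shLoxl2 arrays and 1 shSnail array, and in the silenced channel on 2 shLoxl2 arrays.

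In lower glycolysis Pgk1, phosphoglycerate kinase, fell in shLoxl2. Its ratios were -0.90, -0.78, -1.15 and -0.60 on the shLoxl2 arrays and -0.27 and -0.41 on the shSnail arrays, and no shSnail array was as low as any shLoxl2 array. It fell 1.81-fold in shLoxl2 (-0.86, SE 0.11, adjusted p = 0.0073), with the control spot saturated on 3 of 4 arrays. In shSnail it did not pass (-0.51, SE 0.15, adjusted p = 0.051, or -0.34, adjusted p = 0.060, with no dye correction). Eno1, the ubiquitous enolase, scattered most, with 1.27, 0.35, 2.34 and 1.27 in shLoxl2 and -0.28 and 0.85 in shSnail. Its value of 1.31 in shLoxl2 had an SE of 0.33 and did not pass (adjusted p = 0.053), but it passed in 7 of 15 alternative settings, as with the shLoxl2 values fitted alone (adjusted p = 0.0019). In shSnail it stood at 0.78, or 0.28 with no dye correction, and did not pass. Pgam1 (0.10 and 0.36) and Pkm2, the gene of muscle pyruvate kinase (0.12 and 0.53), passed in neither line, though Pgam1 passed in shSnail with no dye correction (0.55, adjusted p = 0.016). The dimmer of its 2 probes gave -0.06 (SE 0.17) in shLoxl2 and -0.11 (SE 0.23) in shSnail, opposite in sign to the brighter. A probe named LOC380687 lists the Gapdh transcript among its accessions and did not pass in either line (-0.10, SE 0.14, and 0.32, SE 0.23). With no dye correction it passed in shSnail (-0.47, adjusted p = 0.048), where the silenced channel was saturated on both arrays and the control channel on neither. On the shLoxl2 arrays its control channel was saturated on all 4 and the silenced channel on 2.

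At the fate of pyruvate 2 of 3 genes fell in each line, where 5.86% of all genes fell in shLoxl2 and 12.4% in shSnail. Pdk1 encodes a kinase that shuts pyruvate dehydrogenase, and its probe lies at chr2:71702470-71702529. The Pdk1 ratio was -0.97, -0.82, -0.96 and -0.73 on the shLoxl2 arrays and -0.58 and -0.66 on the shSnail arrays, with no overlap between the lines. It fell 1.83-fold in shLoxl2 (-0.87, SE 0.11, adjusted p = 0.0068) and 1.64-fold in shSnail (-0.72, SE 0.13, adjusted p = 0.012), or -0.62 with no dye correction. The shSnail call was lost without either shSnail replicate or without shLoxl2 replicate 2. The silenced channel was well above background on 2 of 4 shLoxl2 arrays, and the shLoxl2 value was -0.32 without background subtraction and -2.11 with the scanner software's ratios. Slc16a3 encodes MCT4, the carrier that exports lactate. It stood at -0.60, -0.43, -0.84 and -0.82 in shLoxl2 and at -0.52 and -0.94 in shSnail, and the lines overlapped. Slc16a3 fell in shLoxl2 (-0.67, SE 0.15, adjusted p = 0.039) and shSnail (-0.78, SE 0.19, adjusted p = 0.034), or -0.73 in shSnail with no dye correction. The shLoxl2 call was lost without replicate 1 (adjusted p = 0.063) and without replicate 2 (adjusted p = 0.13), and in shSnail it was lost when any 1 replicate was left out. Ldha, which turns pyruvate into lactate, passed in neither line (-0.37, SE 0.19, and -0.20, SE 0.27).

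**Figure D2:**
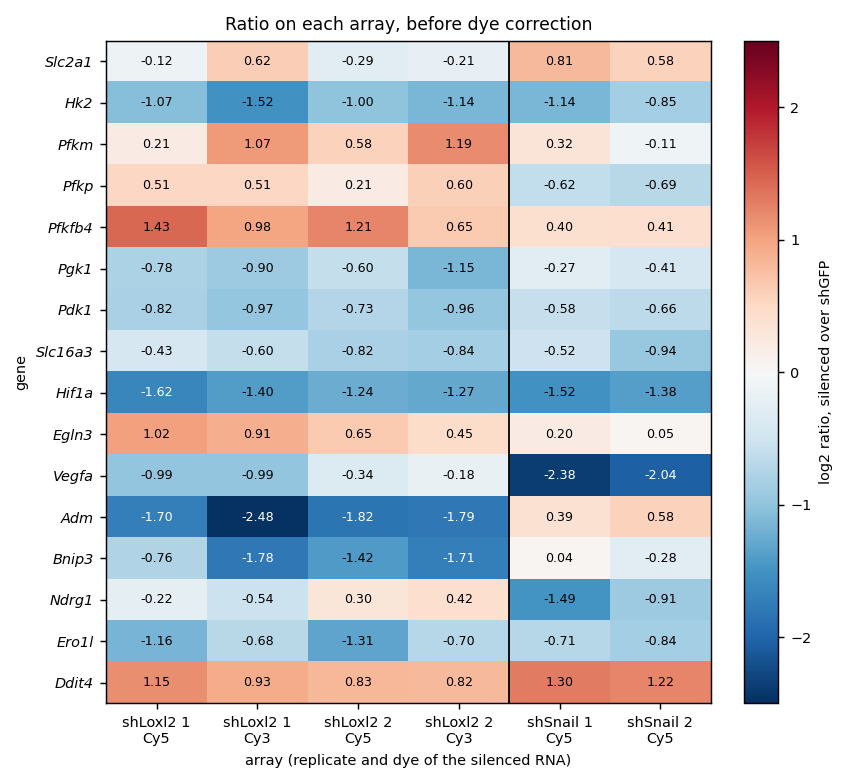
Log2 ratio of silenced over shGFP RNA on each of the 6 arrays (columns, with replicate and dye of the silenced RNA) for the 16 genes that passed in shLoxl2 or shSnail (rows), before any dye correction. Blue is lower and red higher in the silenced line. Hif1a, Hk2, Pdk1, Slc16a3 and Ero1l are blue and Ddit4 is red in all 6 columns, while Adm and Pfkp change colour between the lines.

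The secreted factors parted the lines. Adm encodes adrenomedullin, a vasodilator peptide, and its probe lies at chr7:110420751-110420810. The Adm ratio was -2.48, -1.70, -1.79 and -1.82 on the shLoxl2 arrays and 0.39 and 0.58 on the shSnail arrays. The groups did not overlap and lay on opposite sides of 0. Adm fell 3.86-fold in shLoxl2 (-1.95, SE 0.13, adjusted p = 0.0014), the largest fall of the 34 genes in that line, and did not pass in shSnail (0.30, SE 0.19), where it passed with no dye correction (0.48, adjusted p = 0.034). The silenced channel was well above background on 3 of 4 shLoxl2 arrays, and the fall ranged from -0.97 without background subtraction to -2.95 with the scanner software's ratios. Vegfa encodes the main growth factor of blood vessels, and its probe lies at chr17:45482144-45482203. It stood at -0.99, -0.99, -0.18 and -0.34 in shLoxl2 and at -2.38 and -2.04 in shSnail. Every shSnail array was below every shLoxl2 array, and replicate 1 of shLoxl2 was below replicate 2 in both dyes. Vegfa fell 4.51-fold in shSnail (-2.17, SE 0.26, adjusted p = 0.0033), or -2.21 with no dye correction, and did not pass in shLoxl2 (-0.63, SE 0.20, adjusted p = 0.10).

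Among the mitochondrial proteins Bnip3, which marks mitochondria for removal by autophagy, was low in shLoxl2. Its probe lies at chr7:138729737-138729796. The Bnip3 ratio was -1.78, -0.76, -1.71 and -1.42 on the shLoxl2 arrays and 0.04 and -0.28 on the shSnail arrays, with no overlap. It fell 2.67-fold in shLoxl2 (-1.42, SE 0.14, adjusted p = 0.0039) and did not pass in shSnail (-0.45, SE 0.20, or -0.12 with no dye correction). Its relative Bnip3l, which also serves mitochondrial removal, passed in neither (0.30, SE 0.12, and -0.26, SE 0.16). Higd1a, a protein of the respiratory chain, followed the dye, with -0.95 and -1.16 on the Cy3 arrays of shLoxl2 and 0.69 and 0.19 on the Cy5 arrays, and passed in neither line (-0.47 in shSnail, or 0.28 with no dye correction). The carbonic anhydrases, which hydrate carbon dioxide at the cell surface, did not pass either. Car9 split by replicate in shLoxl2, at 0.40 and 0.29 in replicate 1 and -1.52 and -0.67 in replicate 2, and stood at -0.11 and -0.04 in shSnail. Car12 was well above background in each channel on 2 of 4 shLoxl2 arrays and gave -0.22 (SE 0.12) there and -0.15 (SE 0.16) in shSnail, or 0.23 with no dye correction.

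Of the genes of stress and signalling, Ddit4 was high on every array. It encodes REDD1, an inhibitor of mTORC1 that is induced by low oxygen and by other stresses, and its probe lies at chr10:59345095-59345154. The Ddit4 ratio was 0.93, 1.15, 0.82 and 0.83 on the shLoxl2 arrays and 1.30 and 1.22 on the shSnail arrays, which were both higher. Ddit4 rose 1.91-fold in shLoxl2 (0.93, SE 0.12, adjusted p = 0.0070) and 2.30-fold in shSnail (1.20, SE 0.15, adjusted p = 0.0036), or 1.26 with no dye correction. Ero1l, an oxidase that forms disulfide bonds in the endoplasmic reticulum, was low on every array, at -0.68, -1.16, -0.70 and -1.31 in shLoxl2 and -0.71 and -0.84 in shSnail. The Cy5 arrays of shLoxl2 were lower than its Cy3 arrays. Ero1l fell 1.95-fold in shLoxl2 (-0.97, SE 0.11, adjusted p = 0.0056) and 1.42-fold in shSnail (-0.51, SE 0.14, adjusted p = 0.042), or -0.78 with no dye correction. The shSnail call was lost when any 1 replicate of either line was left out. Ndrg1, a stress-responsive gene linked to differentiation, stood at -0.54, -0.22, 0.42 and 0.30 in shLoxl2 and at -1.49 and -0.91 in shSnail. It fell 2.38-fold in shSnail (-1.25, SE 0.29, adjusted p = 0.028), or -1.20 with no dye correction, was lost there without replicate 1 of either line, and gave -0.01 (SE 0.22) in shLoxl2. Mxi1, an antagonist of Myc, passed in neither line (-0.06, SE 0.13, and -0.38, SE 0.17).

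The lines were compared directly on the 4 arrays where Cy5 marked the silenced RNA, on which a dye effect common to them cancels. The shSnail ratio followed the dye effect of the shLoxl2 pairs with a slope of only 0.45 over all probes. The effect may thus differ between the lines, and part of it may stay in this comparison. Of the 34 genes 5 passed (14.7%), against 12.9% of all genes, with 2 higher in shSnail (5.88% against 4.34%) and 3 lower (8.82% against 8.55%). The median difference was -0.05, against -0.04 for all genes. Adm was higher in shSnail by 2.24 (SE 0.16, adjusted p = 0.012), or 4.73-fold, and Slc2a1, with its saturated shLoxl2 spots, by 0.90 (SE 0.17, adjusted p = 0.035). Vegfa was lower in shSnail by 1.55 on this scale (-1.55, SE 0.27, adjusted p = 0.030), Pfkp by 1.02 (-1.02, SE 0.18, adjusted p = 0.029) and Pfkfb4 by 0.91 (-0.91, SE 0.16, adjusted p = 0.031). Ndrg1 did not pass (-1.24, SE 0.28, adjusted p = 0.050). Against the averaged shLoxl2 pairs with a scaled dye correction, 5 genes passed, against 12.5% of all genes, with 2 higher (against 3.79%) and 3 lower (against 8.66%). There Slc2a1 no longer passed (0.79, adjusted p = 0.075) and Bnip3 did (1.15, adjusted p = 0.021), which on the Cy5 arrays had 0.97 (SE 0.27, adjusted p = 0.077).

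The calls of these 5 differences were lost without shSnail replicate 1 or 2, which left 1 array in that group. Few of all probes passed in those fits either, so the loss was not particular to these genes. Without shLoxl2 replicate 1 more of the 34 genes passed, as did more of all probes. Of the 6 genes that passed in the same direction in both lines, none passed in the direct comparison. The difference was 0.46 (SE 0.16, adjusted p = 0.12) for Ero1l, which stood lower in shLoxl2. It was -0.02 (SE 0.19) for Hif1a, 0.04 (SE 0.18) for Hk2, 0.15 (SE 0.15) for Pdk1, -0.11 (SE 0.23) for Slc16a3 and 0.27 (SE 0.18) for Ddit4. A missed threshold does not show that the lines were equal in these genes.

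**Figure D3:**
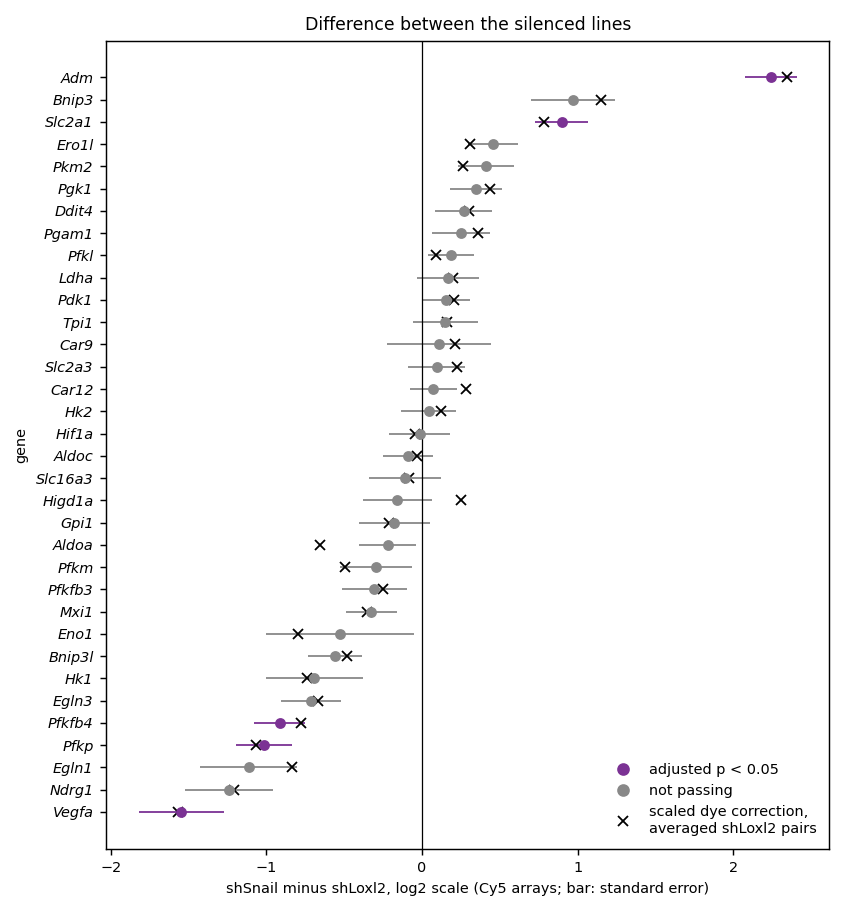
Difference in log2 ratio between shSnail and shLoxl2 for each of the 34 genes, sorted by size, from the 4 arrays that carried silenced RNA in Cy5 (points, with bars of 1 standard error). Purple genes passed limma at an adjusted p of 0.05, and crosses give the difference from the averaged shLoxl2 pairs with a scaled dye correction. Adm stands apart at 2.24 and Vegfa at -1.55, while Hif1a and Hk2 lie next to 0.

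Genes of the same pathways outside the 34 were counted in 4 lists. Of 21 other enzymes of sugar breakdown and synthesis tested, 1 rose and 2 fell in shLoxl2 and 2 rose and 2 fell in shSnail. The shares that passed, 14.3% and 19.0%, lay near those of all genes, 14.1% and 21.4%. The phosphoglucomutase that the array calls Pgm1, on chromosome 5, carries the name Pgm2 in the RefSeq table, and the array's Pgm2, on chromosome 4, carries the name Pgm1. The array's Pgm1 fell in both lines (-0.77, adjusted p = 0.0096, and -0.72, adjusted p = 0.013, or -0.85 in shSnail with no dye correction), as did the neuronal enolase Eno2 (-0.75, adjusted p = 0.012, and -0.94, adjusted p = 0.0067), whose shSnail value was -0.37 and did not pass with no dye correction. In shLoxl2 Eno2 stood at -1.32 and -1.33 on the Cy3 arrays but at -0.12 and -0.24 on the Cy5 arrays. Its silenced channel was well above background on 2 of those 4 arrays. Minpp1, a phosphatase that also acts on bisphosphoglycerate, rose in shLoxl2 (0.83, adjusted p = 0.011). In shSnail the array's Pgm2, the enzyme that links glycogen to glucose 6-phosphate, rose (0.78, adjusted p = 0.035, or 0.82 with no dye correction). Fbp1, the gluconeogenic phosphatase, rose in shSnail with the dye effect removed (0.79, adjusted p = 0.013) but stood at 0.06 without that step. In the direct comparison Fbp1 was higher in shSnail (0.87, adjusted p = 0.037) and Minpp1 lower (-0.96, adjusted p = 0.029). Against the averaged shLoxl2 pairs with a scaled dye correction Fbp1 no longer passed (0.47, adjusted p = 0.13).

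Of 19 carriers and genes of the pyruvate dehydrogenase step, 1 rose and 2 fell in shLoxl2 and 4 rose and 1 fell in shSnail, or 15.8% and 26.3% in all, against 14.1% and 21.4% of all genes. Mpc1, a subunit of the mitochondrial pyruvate carrier, was -0.50, -0.51, -0.52 and -0.60 on the shLoxl2 arrays and 1.43 and 1.58 on the shSnail arrays, so that the lines lay on opposite sides of 0. It fell in shLoxl2 (-0.53, SE 0.11, adjusted p = 0.029) and rose in shSnail (1.53, SE 0.13, adjusted p = 0.0015), or 1.51 with no dye correction, and the difference passed (2.06, SE 0.16, adjusted p = 0.012). Its partner subunit Mpc2 rose in shSnail (0.64, adjusted p = 0.019, or 0.62 with no dye correction) and was higher there than in shLoxl2 (0.99, adjusted p = 0.024). Pdk3, a pyruvate dehydrogenase kinase like Pdk1, rose in both lines (0.59, adjusted p = 0.029, and 1.32, adjusted p = 0.0031, or 1.09 in shSnail with no dye correction). Pdp1, the phosphatase that opposes those kinases, fell in both (-0.44, adjusted p = 0.048, and -1.07, adjusted p = 0.0037, or -0.86 in shSnail with no dye correction).

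Of 14 genes of oxygen sensing and the HIF subunits, 2 rose in shLoxl2, 3 rose in shSnail and 0 fell in either. The shares that passed were 14.3% and 21.4%, against 14.1% and 21.4% of all genes. Cited2, which competes with HIF-1alpha for a coactivator, stood at 0.51, 0.98, 0.53 and 0.96 in shLoxl2 and at 1.99 and 1.95 in shSnail, higher in both shSnail arrays than in any shLoxl2 array. It rose in shLoxl2 (0.75, SE 0.10, adjusted p = 0.0096) and in shSnail (1.74, SE 0.13, adjusted p = 0.0013), or 1.97 with no dye correction, and the difference on the Cy5 arrays was 1.0 (SE 0.15, adjusted p = 0.022). Egln2, the third prolyl hydroxylase, rose in shLoxl2 (0.61, adjusted p = 0.041). Rbx1 and Tceb2, subunits of the ubiquitin ligase that takes up hydroxylated HIF-1alpha, rose in shSnail (1.71, adjusted p = 0.0035, and 0.81, adjusted p = 0.0085, or 1.97 and 0.69 with no dye correction). Both were higher there than in shLoxl2 (1.87, adjusted p = 0.020, and 0.91, adjusted p = 0.026).

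Of 46 other genes known to rise in hypoxia, 1 rose and 5 fell in shLoxl2, and 4 rose and 9 fell in shSnail, or 13.0% and 28.3% in all, against 14.1% and 21.4% of all genes. Hmox1, the haem-degrading enzyme, rose in both (1.98, adjusted p = 0.0010, and 1.66, adjusted p = 0.0016, or 1.74 in shSnail with no dye correction). In shLoxl2 the falls included Fam162a, a mitochondrial target of HIF-1 (-1.21, adjusted p = 0.0045), P4ha1, a collagen prolyl hydroxylase (-0.64, adjusted p = 0.016), and Sap30, a corepressor subunit (-0.74, adjusted p = 0.018). In shSnail Pnrc1, a nuclear receptor coregulator, fell (-1.24, adjusted p = 0.0031, or -1.17 with no dye correction), while Angptl4, an inhibitor of lipoprotein lipase, rose (1.02, adjusted p = 0.010, or 1.33 with no dye correction). Epo, the hormone of red cell formation, passed with the dye effect removed (0.71, adjusted p = 0.013) and stood at 0.19 without that step. Between the lines Pnrc1 (-1.20, adjusted p = 0.020), Ccng2, an atypical cyclin (-0.81, adjusted p = 0.034), and Btg1, an antiproliferative gene (-1.01, adjusted p = 0.040), were lower in shSnail. Igfbp3 also passed (-1.10, adjusted p = 0.028) with a shGFP channel that did not clear background on either shSnail array. With the scaled correction Btg1 (-0.88, adjusted p = 0.062) and Igfbp3 (-0.28, adjusted p = 0.33) no longer passed. The medians of the 4 lists were -0.14, -0.17, 0.05 and 0.01 in shLoxl2, in the order above, and -0.12, -0.00, -0.06 and -0.17 in shSnail.

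**Figure D4:**
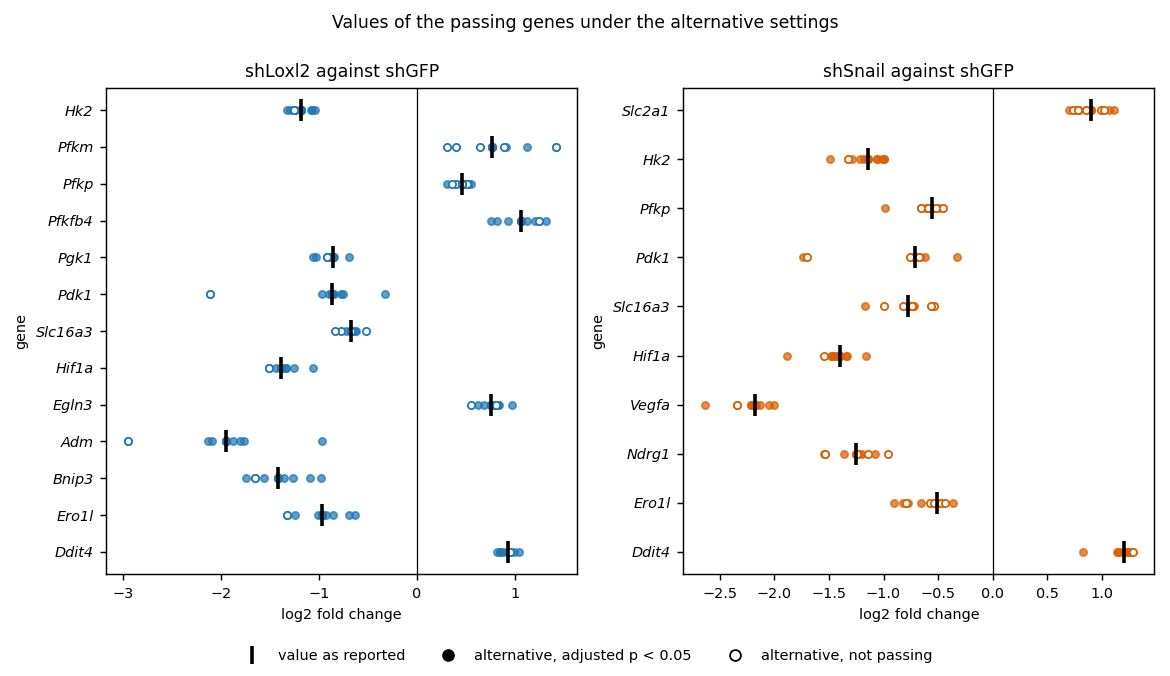
Log2 fold change of the genes that passed in shLoxl2 (left, 13 genes) and shSnail (right, 10 genes) as reported (black bars) and under the alternative settings (circles, filled where limma passed at an adjusted p of 0.05). All values of a gene keep their sign, and Adm and Pdk1 move most in shLoxl2.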

How the data were processed

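RNA of 2 shLoxl2 replicates, each in both dye orientations, and 2 shSnail replicates was hybridised against shGFP RNA on 6 arrays. The deposited spot intensity values were read out by Agilent Feature Extraction, which the file headers give as version 9.5.1.1 and the submitters' processing notes as 6.1.1. That software also made the log10 ratios (Cy5 over Cy3) that the authors deposited. A value table by the authors repeats these ratios, but its column for shSnail replicate 2 matched the scanner file of replicate 1 at 100% of spots (tolerance 0.006), so 1 shSnail array of it was used, as an alternative only.

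Mean intensities were corrected by normexp (offset 50) and normalized by loess in limma 3.58.1 (R 4.3.3), with 736 control spots at weight 0. A probe was tested where 1 channel or both cleared background on 2 or more arrays and all 6 arrays gave a value: 19719 of 20868, with 33 left out for an outlier spot. Dye-swapped arrays were averaged. Tests were lmFit and eBayes. They were also run on simulated data with independent noise of equal spread for all values of a probe. Such data cannot check the error rate on these arrays. The arrays' small number limits precision. The genes, lists and tests were chosen with earlier results of these data known. All 36 genes were accounted for, and of each pathway list up to 4 genes per comparison were named by smallest p among those that passed. Motif positions used pandas and figures matplotlib. Probe sequences are not used here.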

Additional observations from a re-analysis of the deposited data

How the results depend on the processing

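Of 1373 gene-level values recomputed under the alternatives, 1217 kept their side of the threshold, 79 of them with a change of sign in values that passed neither time. The call was lost in 87 and gained in 67. The other 2 had not passed as reported and passed in limma with the opposite sign. Slc2a3 in shSnail went from -0.06 to 0.69 (adjusted p = 0.015) with median centring. Aldoa in shLoxl2 went from 0.08 to -0.72 (adjusted p = 0.013) on the Cy5 arrays alone. The causes were not tested.

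In shLoxl2, all calls were lost with the authors' value table, and Hk2, Pfkfb4, Pdk1, Hif1a, Adm, Bnip3 and Ero1l were lost nowhere else. In shSnail the same held for Hk2, Hif1a, Vegfa and Ddit4. With that table limma called 0 probes and 0 of the 34 genes in each of the 3 comparisons, with 3472, 5606 and 3854 probes and 14, 11 and 5 genes at an unadjusted p under 0.05 for shLoxl2, shSnail and the direct comparison.

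With the scanner software's log ratios, 774 probes and 8 genes (2 higher, 6 lower) passed in shLoxl2 and 2 genes in the direct comparison, and the median of all probes moved to -0.28 in shSnail (1012 probes higher, 3172 lower) and in the direct comparison (423 higher, 1927 lower). With median centring, 8703 probes passed in shSnail (4662 higher, 4041 lower, against 1729 and 2474 as reported), and 9360 probes (5013 higher, 4347 lower, against 833 and 1683) and 13 genes (3 higher, 10 lower) in the direct comparison, with medians of 0.10 and 0.12. Without background subtraction 8 genes and 3139 of 19719 probes passed in the direct comparison. In shSnail 4 genes were higher and 8 lower in that setting, with 1747 probes higher and 2659 lower. With only probes above background in both channels on all 6 arrays, 8 of 27 genes passed in the direct comparison. There 3395 of 9460 probes passed. On the Cy5 arrays alone 7624 probes passed in shLoxl2, and on the Cy3 arrays alone 6705.

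Leaving out 1 replicate gave 1733 to 2789 probes and 10 to 14 genes in shLoxl2, 1584 to 3144 probes and 4 to 6 genes in shSnail, and 39 to 4283 probes and 0 to 8 genes in the direct comparison. There the lone array of a line was assumed to vary like the other groups. Replicate numbers are shared by the lines, but nothing in the labels pairs them, and deviations of same-numbered values correlated at 0.32 and 0.21. With the replicate number as a block, 4171 probes and 17 genes passed in shLoxl2, and 2709 probes and 7 genes in the direct comparison. Slide and scan day as a block were not run, since each array is its own slide and each line has its own day.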
